A study of Mus musculus with 53 samples.

Results

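H3K27ac, the acetylation of lysine 27 of histone H3 that marks active promoters and enhancers, was compared between nEnd cells and KOSR SOX2+ cells. The comparison used 4 of the 53 samples of the series, or 4 of the 33 peak lists that could be given a condition. They were the H3K27ac lists of nEnd clones B9 and B12 and of KOSR SOX2+ experiments A and B. Peaks of the 4 lists that overlapped by at least 1 bp were merged into 31263 regions. Of these, 9017 held peaks of both nEnd libraries and of no SOX2+ library (nEnd-only), 2800 held peaks of both SOX2+ libraries and of no nEnd library (SOX2+-only), and 3861 held peaks of all 4 libraries (shared). These were 28.8%, 8.96% and 12.4% of all merged regions. The other 15585 regions held another combination of libraries and are called partial. Because the peaks themselves fixed the classes, the class counts are a description and carry no test.

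The study mapped histone marks and the factors SOX2 and GATA6 by CUT&RUN, in which an antibody directs micrococcal nuclease to chromatin and the released fragments are sequenced. All cells were SGGC mouse ESCs, made from the E14JU line, in which endogenous SOX2 is fused to GFP and endogenous GATA6 to mCherry, so both reporter alleles were present in every group. The nEnd (naïve extra-embryonic endoderm) libraries came from clones B9 and B12 that had been differentiated in RACL medium and that model the primitive endoderm (PrE). The SOX2+ libraries came from cells of clone B12 in KnockOut Serum Replacement (KOSR) medium, sorted as SOX2-GFP single positives in experiments A and B. KOSR culture also gave the sorted double positive (DP) SOX2+GATA6+ cells whose factor and mark libraries are used below. B9 and B12 are separate clones of the same parental line, and whether experiments A and B were separate cultures is not stated, so a p-value measures only the spread between these libraries. Condition, culture, sort and experiment changed together and cannot be told apart. Both SOX2+ libraries came from B12, so the counts of regions and genes within that clone are given beside the main ones.

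SOX2 is a high-mobility-group factor that, with OCT4 and NANOG, maintains the pluripotent epiblast and ESCs. GATA6 is a zinc-finger factor that drives the PrE, the extra-embryonic layer that lines the blastocyst cavity and lays down a thick basement membrane. The states are antagonistic, and H3K27ac shows which promoters and distal enhancers are in use in each.

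Sequences at factor maxima are given as examples of regions of each class. For the 3 nEnd-only regions with the highest-ranked H3K27ac that also held GATA6 peaks in both nEnd libraries, 200 bp around the highest GATA6 maximum of nEnd are given below, named by the nearest protein-coding gene. All sequences are the + strand of GRCm38, and capitals mark the GATA factor motif AGATAA or TGATAA on either strand (TTATCT and TTATCA on the other).
Otud4, chr8:79596605-79596804: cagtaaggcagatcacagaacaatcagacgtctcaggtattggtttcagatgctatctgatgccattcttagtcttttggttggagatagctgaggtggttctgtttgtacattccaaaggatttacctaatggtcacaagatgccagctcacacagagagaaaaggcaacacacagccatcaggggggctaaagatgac
Rhou, chr8:123722264-123722463: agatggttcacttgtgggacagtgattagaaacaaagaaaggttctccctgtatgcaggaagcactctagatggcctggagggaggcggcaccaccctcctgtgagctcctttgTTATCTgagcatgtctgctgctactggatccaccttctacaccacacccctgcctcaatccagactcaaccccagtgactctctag
Cep89/Faap24/Rhpn2, chr7:35344903-35345102: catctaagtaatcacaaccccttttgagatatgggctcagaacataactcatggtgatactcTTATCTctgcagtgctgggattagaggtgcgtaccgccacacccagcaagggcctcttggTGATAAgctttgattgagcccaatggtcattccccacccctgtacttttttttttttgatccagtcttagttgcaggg
The first held no match, the second 1 and the third 2. The first lay between genes, the second in an intron of Gm20388 and the third in an intron of Rhpn2. For the 3 SOX2+-only regions of highest rank with SOX2 peaks in all 3 SOX2+ SOX2 libraries, the same length around the highest SOX2 maximum is given, with the SOX motif CATTGT and the octamer ATGCAAAT searched on both strands.
Scn3b, chr9:40239901-40240100: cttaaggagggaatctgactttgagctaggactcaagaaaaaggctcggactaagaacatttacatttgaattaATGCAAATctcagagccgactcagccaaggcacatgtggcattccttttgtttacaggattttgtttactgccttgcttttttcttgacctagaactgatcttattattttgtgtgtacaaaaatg
Zfp808, chr13:62182217-62182416: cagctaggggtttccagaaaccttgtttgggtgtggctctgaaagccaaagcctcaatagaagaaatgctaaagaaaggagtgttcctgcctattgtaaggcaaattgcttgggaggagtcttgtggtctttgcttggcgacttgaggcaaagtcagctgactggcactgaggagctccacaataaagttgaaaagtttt
Gdf3, chr6:122608547-122608746: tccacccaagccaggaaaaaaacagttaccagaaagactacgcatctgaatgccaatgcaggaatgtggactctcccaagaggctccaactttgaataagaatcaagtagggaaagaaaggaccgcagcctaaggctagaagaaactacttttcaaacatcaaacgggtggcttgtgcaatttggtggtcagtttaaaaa
The octamer, the site of POU factors such as OCT4, was found in the first of them only, which lay between genes, while the others lay in introns of Zfp808 and Gdf3. The next 3 windows were picked after their values were seen, because they lie at marker genes. For each gene only its highest-ranked region of the class with the factor's peaks, chosen as above, was searched for the highest factor maximum. They are GATA6 maxima in nEnd-only regions of Gata4 (in its intron) and Sox17 (19045 bp from the start site). The third is a SOX2 maximum in a SOX2+-only region of Sox2 (3651 bp from the start site, in an intron of Sox2ot).
Gata4, chr14:63231194-63231393: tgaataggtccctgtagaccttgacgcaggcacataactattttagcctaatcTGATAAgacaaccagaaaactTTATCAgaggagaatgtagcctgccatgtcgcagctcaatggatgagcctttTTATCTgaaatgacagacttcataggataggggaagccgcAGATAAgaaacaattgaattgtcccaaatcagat
Sox17, chr1:4474590-4474789: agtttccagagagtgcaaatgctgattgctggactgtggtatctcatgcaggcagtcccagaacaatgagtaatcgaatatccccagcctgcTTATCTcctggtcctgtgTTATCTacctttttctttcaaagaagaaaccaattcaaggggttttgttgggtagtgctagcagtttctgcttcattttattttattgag
Sox2, chr3:34653956-34654155: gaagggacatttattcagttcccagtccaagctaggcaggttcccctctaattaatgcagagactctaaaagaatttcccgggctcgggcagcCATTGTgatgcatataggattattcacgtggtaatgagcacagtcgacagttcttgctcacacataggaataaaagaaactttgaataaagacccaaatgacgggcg
The Gata4 window held 4 GATA motifs and the Sox17 window 2, and the Sox2 window held 1 CATTGT. Of the 7 marker genes whose windows were searched these held the most matches for their factor. The Foxa2 and Pdgfra windows held 1 GATA motif each, the Esrrb and Zfp42 windows held no match, and these 4 are not shown. A match is a string in the genome and not a measured site.

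The nEnd lists held 21394 (B9) and 20072 (B12) peaks and the SOX2+ lists 13514 (A) and 14722 (B). The widths differed more than the numbers. The median peak was 4386 bp in nEnd B9 and 5453 bp in nEnd B12 but 1564 bp in SOX2+ A and 1574 bp in SOX2+ B. The peaks covered 137.2 and 175.2 Mb in nEnd against 26.15 and 28.61 Mb in SOX2+ cells. The mean of the median widths was 4920 ± 754.5 bp (SD, n = 2) in nEnd and 1569 ± 7.07 bp (SD, n = 2) in SOX2+ cells, with an exact permutation p of 0.333, two-sided, which is the smallest that 2 against 2 libraries can give. The nEnd libraries therefore lay well apart from the SOX2+ libraries in how much of the genome was called, and read depth is unknown. The names of the SOX2+ lists also carry a tag that those of nEnd lack. Whether coverage, background or the cells set this was not tested, and it bears on every class count below. A peak list also cannot tell the mark in more of the cells from more mark per cell.

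Replicates overlapped more than conditions did. Of nEnd B9 peaks 81.1% overlapped a peak of nEnd B12, and of nEnd B12 peaks 76.1% overlapped one of B9. The corresponding shares were 67.1% and 61% between SOX2+ A and B. Between 24.9% and 27.6% of nEnd peaks overlapped a peak of a SOX2+ library, whereas 49.2% to 59.9% of the narrower SOX2+ peaks overlapped a peak of an nEnd library. With each list trimmed to its 13514 strongest peaks by maximum signal, these ranges were 29.1% to 34.4% and 40.7% to 53.1%.

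**Figure D1:**
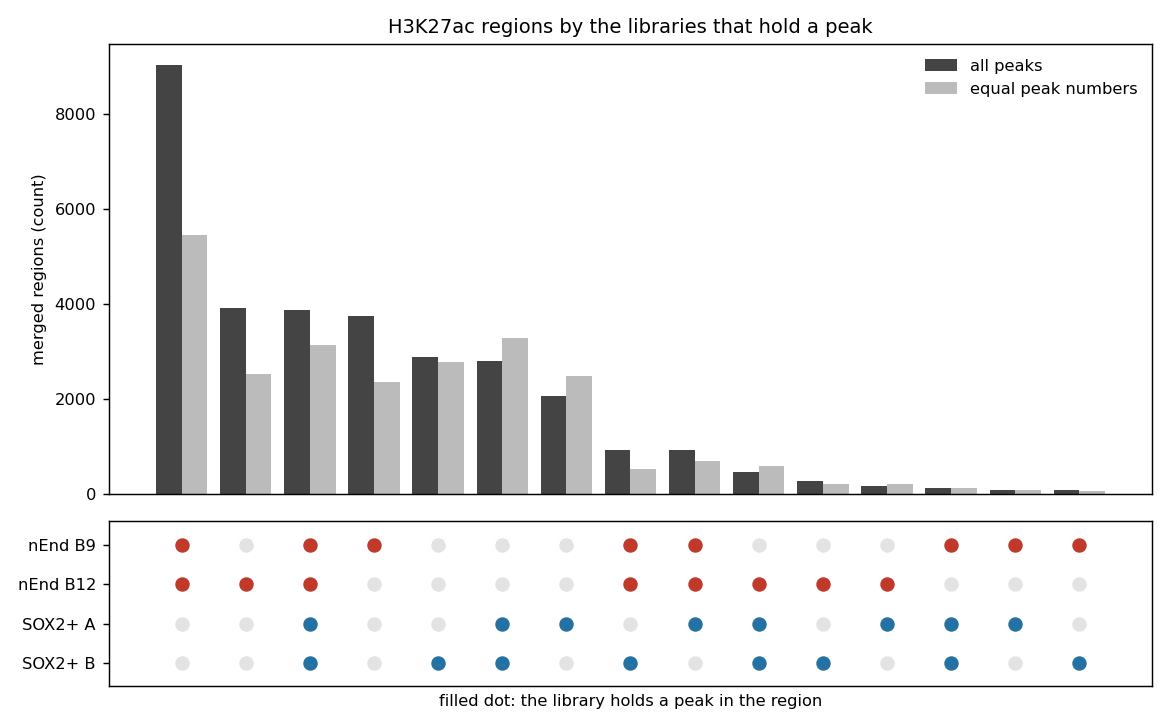
Merged H3K27ac regions (count, bars) for each combination of libraries, with filled dots marking the libraries that held a peak (red, nEnd, and blue, SOX2+ cells), for all peaks and for 13514 peaks per library. Regions of both nEnd libraries alone were the commonest pattern, with 9017 regions at all peaks and 5445 at equal peak numbers.

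At equal peak numbers there were 5445 nEnd-only, 3278 SOX2+-only and 3136 shared regions among 24397. The order of the classes depended on how the lists were matched. When each list was instead cut to the 26.15 Mb covered by the smallest, which kept 1745 and 1047 peaks of nEnd B9 and B12 and 13514 and 13092 of SOX2+ A and B, 278 regions were nEnd-only, 6891 SOX2+-only and 358 shared. The excess of nEnd-only over SOX2+-only regions thus turned round, and neither condition can be said to have more of its own H3K27ac regions. Within clone B12, with nEnd B9 left out, the counts were 13414, 2970 and 4321. Leaving out nEnd B12 gave 14901 nEnd-only regions, and leaving out SOX2+ A or B gave 5887 or 5111 SOX2+-only regions.

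Where the regions lay differed between the classes. Shared regions were mostly promoters, as 84.2% of them (95% Clopper-Pearson interval 83% to 85.3%) had an annotated transcription start site (TSS) no more than 1 kb away. nEnd-only regions were split about evenly, with 50.7% (49.7% to 51.8%) within 1 kb. SOX2+-only regions were mostly distal, with 17.8% (16.4% to 19.3%) within 1 kb and 45.4% more than 10 kb away. Over all 31263 regions the share within 1 kb was 41.9%. The median distance was 735 bp for nEnd-only and 8290 bp for SOX2+-only regions and 0 bp for shared regions, most of which lay over a TSS.

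**Figure D2:**
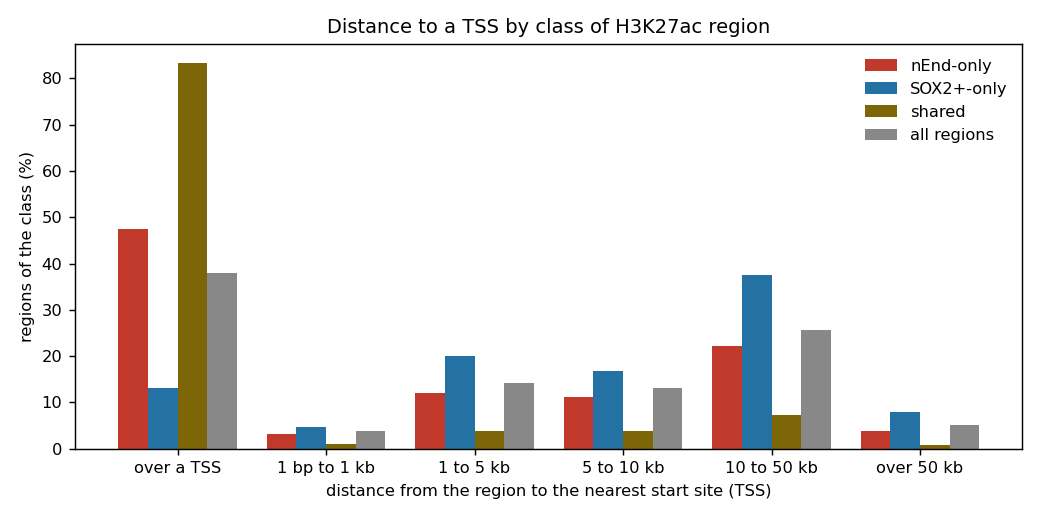
Share of the regions of each class (%, y axis) by distance from the region's edge to the nearest TSS (x axis). Of shared regions 83.2% lay over a TSS, against 47.5% of nEnd-only and 13% of SOX2+-only regions, while 37.5% of SOX2+-only regions lay 10 to 50 kb from one.

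Wider regions reach a TSS more often, and the classes differed in width as well. The median width was 5943 bp for nEnd-only, 2173 bp for SOX2+-only and 11687 bp for shared regions. Measured from the strongest H3K27ac maximum in place of the region's edge, the shares within 1 kb were 29.1%, 11.1% and 57.1%. At equal covered length they were 61.9%, 44.5% and 88.5%. The order of the classes held in both. Per library, 50.7% and 53.9% of nEnd peaks and 39.1% and 34.5% of SOX2+ peaks lay within 1 kb of a TSS. The means of 52.3 ± 2.27% and 36.8 ± 3.31% (SD, n = 2 each) differed by 15.5 percentage points, with an exact permutation p of 0.333, the smallest possible.

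PrE transcription factors, basement membrane genes and PrE surface genes were mostly nearest to nEnd-only regions, and core pluripotency genes mostly to shared and SOX2+-only ones. A gene was counted when it was the protein-coding gene with the TSS nearest to a region of a class. Of 21829 protein-coding genes, 6074 (27.8%) were nearest to an nEnd-only region, 1772 (8.12%) to a SOX2+-only region and 4232 (19.4%) to a shared region. A gene could count in more than 1 class. Of genes nearest to an nEnd-only region 9.63% were also nearest to a SOX2+-only region, which was 33% of the latter. Members of a list are read against these background shares, with no test.

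Among 8 PrE transcription factors, 7 were nearest to an nEnd-only region, 1 to a SOX2+-only region and 2 to a shared region. Together the 7 genes had 33 nEnd-only regions, 28 of them with GATA6 peaks in both nEnd libraries, 1 with SOX2 peaks in all 3 SOX2+ SOX2 libraries and 6 within 1 kb of the gene's own TSS. Of all nEnd-only regions 53.8% held GATA6 peaks in both nEnd libraries and 7% held SOX2 peaks in all 3, and no test was made of the difference. For each gene below, the values are the number of H3K27ac peaks in the regions nearest to it and the percentile of its strongest peak, which is the percent of that library's peaks with a lower maximum. Maxima are whole numbers with a median of 9 in both SOX2+ libraries and of 42 and 35 in nEnd, so many SOX2+ peaks tie. Sox17, an endoderm SOX factor, had 10 peaks in nEnd B9 and 8 in nEnd B12, with the strongest at percentiles 98.5 and 99, and none in SOX2+ A or B. Foxa2, a forkhead pioneer factor of endoderm, had 9 and 6 peaks, with the strongest at percentile 99.15 in both, and none in either SOX2+ library. Foxq1, another forkhead gene, had 12 and 14 peaks and none in SOX2+ cells. None of these 3 genes had a SOX2+ peak. Their 6 nEnd values, each the highest of 6 to 14 peaks, lay above the 95th percentile. They do not stand for the whole list, as Hnf4a had strongest nEnd peaks at percentiles 79.2 and 43.8. Hnf4a and Gata6 also had peaks in both SOX2+ libraries, and no share over all genes is set beside these values.

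Gata4, the zinc-finger partner of GATA6, had 4 and 2 nEnd peaks that covered 102.9 and 90.3 kb, and no SOX2+ peak. Hnf4a, a nuclear receptor of visceral endoderm, had 1 nEnd-only and 1 shared region. Sox7, the paralogue of Sox17, was the exception among the 8, with 1 weak peak in each nEnd library (percentiles 14.9 and 18.8) that did not overlap each other.

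Gata6 itself carried marks of both conditions. It had 6 and 8 peaks in nEnd B9 and B12 (percentiles 99.5 and 99.2, covering 63.4 and 91.3 kb) and 2 in each SOX2+ library (percentiles 90 and 84.3). The 4 nEnd-only regions included a 44821 bp region over the gene, chr18:11045314-11090134. The SOX2+-only region, chr18:10976476-10979476, lay 72588 bp from the nearest Gata6 TSS. It held SOX2 peaks in 3 of 3 SOX2+ and 2 of 3 DP libraries, and a GATA6 peak in 1 of 2 nEnd and 0 of 3 DP libraries. A shared region lay 9067 bp from the TSS.

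Basement membrane genes, which encode the matrix that PrE secretes, had the same lean. Of 10 genes, 8 were nearest to an nEnd-only, 0 to a SOX2+-only and 4 to a shared region. Col4a1 and Col4a2, a head-to-head pair for type IV collagen, lay in 1 nEnd-only region of 261008 bp (chr8:11194174-11455181), the widest of all regions. Its strongest peak stood at percentiles 99.9 and 99.9 of nEnd B9 and B12, and it held GATA6 peaks in both nEnd and all 3 DP libraries and SOX2 peaks in all 3 SOX2+ and all 3 DP libraries. Lama1 and Lamb1, laminin chains, had nEnd peaks covering 152.6 and 149.3 kb and 89.7 and 92.2 kb, and no SOX2+ peaks. Lamc1, the laminin chain partnered with them, had shared regions instead, with 4 and 2 peaks in nEnd and 16 and 16 in SOX2+ cells. The 16 narrow SOX2+ peaks covered 32.7 and 33 kb, against 144 and 153 kb in nEnd.

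Of 12 PrE surface and endocytosis genes, 9 were nearest to an nEnd-only, 2 to a SOX2+-only and 3 to a shared region. Pdgfra, the receptor by which PrE cells are often sorted, had 7 and 9 nEnd peaks and no SOX2+ peak. Podxl, a sialomucin of the apical surface, had 7 and 6 nEnd peaks (percentiles 99.6 and 99.2) and no SOX2+ peak. Cubn, the endocytic receptor cubilin, had 7 and 2 nEnd peaks and none in SOX2+ cells. Dab2, an endocytic adaptor, and Lrp2, the receptor megalin, were the 2 genes with a SOX2+-only region, and both also had nEnd-only regions.

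**Figure D3:**
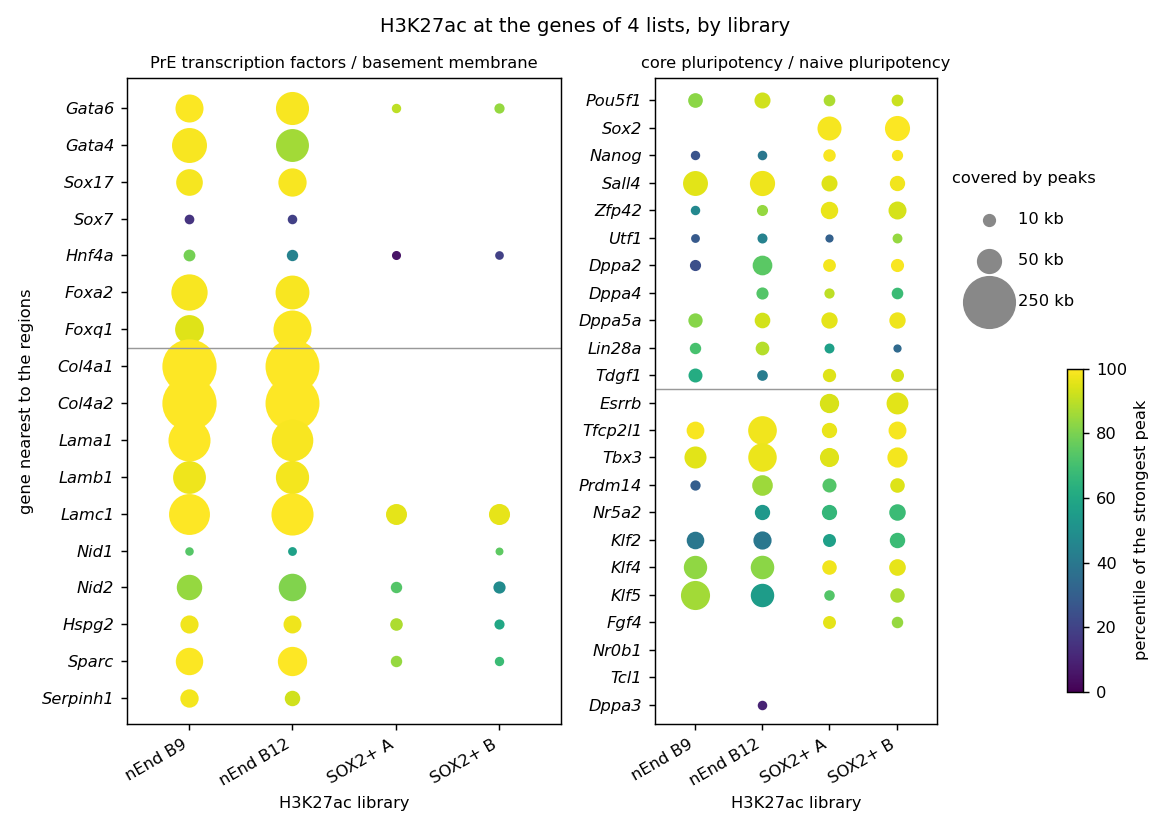
H3K27ac in the regions nearest to genes of 4 lists (1 PrE factor is not shown), by library (x axis), with the circle's area showing the kb covered by peaks and its colour the percentile of the strongest peak in that library. Sox17, Foxa2, Foxq1 and Gata4 have circles in the nEnd columns alone and Sox2, Esrrb and Fgf4 in the SOX2+ columns alone.

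For pluripotency genes the classes were mixed. Of 11 core pluripotency genes, 3 were nearest to an nEnd-only, 5 to a SOX2+-only and 8 to a shared region. Of 12 naïve pluripotency genes, 4, 6 and 4 were. Sox2 was the clearest, with 23 and 22 peaks in SOX2+ A and B (percentiles 98.7 and 99.3, covering 44.8 and 49.4 kb) and none in nEnd B9 or B12. Its 16 SOX2+-only regions were the most of any gene. One of them, chr3:34647690-34658012, lay over the gene, and held SOX2 peaks in 3 of 3 SOX2+ and 2 of 3 DP libraries. Another, chr3:34754842-34763872, lay 104437 bp away, where the distal control region of Sox2 is known, and held SOX2 peaks in all 3 SOX2+ and all 3 DP libraries and no GATA6 peak. A smaller one, chr3:34744071-34745867, held SOX2 peaks in all 3 SOX2+ and all 3 DP libraries together with GATA6 peaks in all 3 DP libraries and in no nEnd library.

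Esrrb, an orphan nuclear receptor of the naïve state, had 11 peaks in each SOX2+ library (percentiles 93.8 and 95.5) and none in nEnd. One of its 7 SOX2+-only regions, chr12:86478261-86481298, held GATA6 peaks in both nEnd and all 3 DP libraries although nEnd had no H3K27ac there. Zfp42 (REX1), a zinc-finger marker of naïve ESCs, had 14 and 11 SOX2+ peaks and 1 peak in each nEnd library. Its promoter lay in a shared region, and 8 further regions were SOX2+-only. Fgf4, the FGF ligand of the epiblast, had 3 and 4 SOX2+ peaks and none in nEnd. Like Sox2, Esrrb and Fgf4 had no peak in either nEnd library, while Zfp42 had weaker ones there (percentiles 46.7 and 84.1, against 96.8 and 93.4 in SOX2+ cells).

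Nanog, the homeobox factor of the pluripotency core, had 4 and 3 SOX2+ peaks whose strongest stood at percentiles 99 and 99.1. It also had 1 peak in each nEnd library, at percentiles 26 and 39.5, so its main region, chr6:122701296-122705763, counted as shared. That region held SOX2 peaks in all 3 SOX2+ and all 3 DP libraries and no GATA6 peak of nEnd. Pou5f1, which encodes OCT4, had similar ranks in all 4 libraries (82.7 and 92.7 in nEnd, 87.5 and 91.9 in SOX2+ cells), and its nEnd-only region 13925 bp from the TSS held GATA6 peaks in both nEnd libraries and SOX2 peaks in all 3 SOX2+ and all 3 DP libraries. Klf4 and Klf5, Krüppel-like factors of ESCs, had 3 and 4 nEnd-only regions and no SOX2+-only region (at equal peak numbers Klf5 had 2), although the strongest Klf4 peak ranked higher in SOX2+ cells (percentiles 97.8 and 96.3) than in nEnd (83.3 and 82.6).

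**Figure D4:**
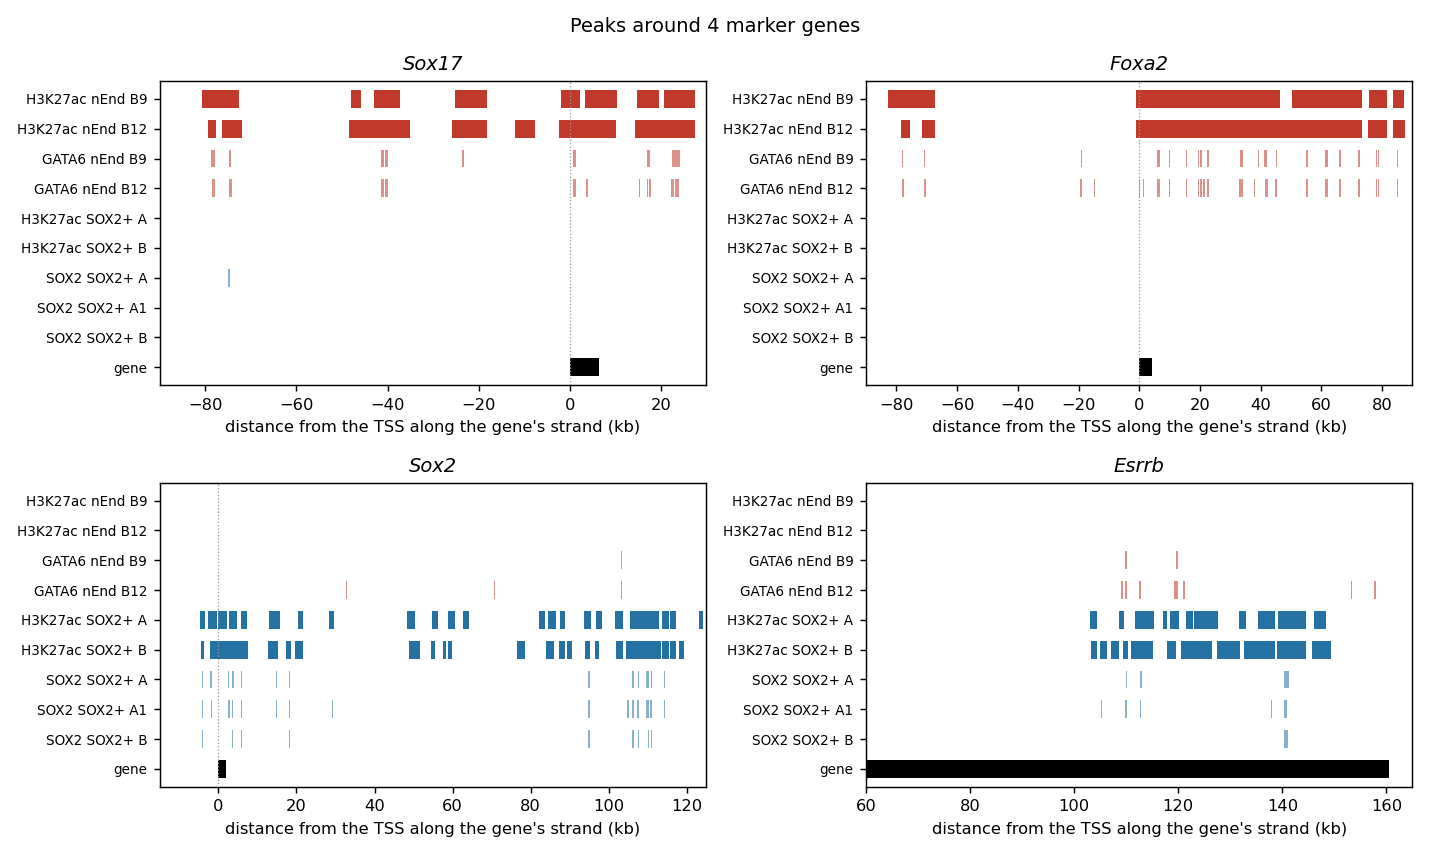
Peaks of H3K27ac, GATA6 and SOX2 (coloured bars, 1 row per library) around Sox17, Foxa2, Sox2 and Esrrb, by distance from the annotated gene start along its strand in kb (the Esrrb panel begins 60 kb into the gene). H3K27ac bars are in the nEnd rows at Sox17 and Foxa2 and in the SOX2+ rows at Sox2 and Esrrb, and GATA6 peaks of nEnd are shown at all 4 genes, inside and outside the H3K27ac bars.

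These counts moved with the covered length. At equal covered length, 5 of 8 PrE factors were nearest to an nEnd-only and 2 to a SOX2+-only region. Basement membrane genes nearest to an nEnd-only region were then 4 of 10 and PrE surface genes 4 of 12, with 2 of each list nearest to a SOX2+-only region. By the same measure 11 of 11 core and 9 of 12 naïve pluripotency genes were nearest to a SOX2+-only region and 0 and 0 to an nEnd-only region. The background for all protein-coding genes then was 284, 4361 and 475 genes of 21829. Within clone B12, 8 PrE factors, 3 core and 8 naïve pluripotency genes were nearest to an nEnd-only region and 1, 5 and 7 to a SOX2+-only region, against 34.4% and 8.53% of all protein-coding genes.

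Signalling genes were spread over the classes when all peaks were used, and their counts moved with how the lists were matched. Of 10 genes of the FGF and ERK response, 4 were nearest to an nEnd-only, 6 to a SOX2+-only and 3 to a shared region. Etv5, an ETS factor induced by ERK, had 8 and 10 SOX2+ peaks at percentiles 97.8 and 97.9, against 1 and 4 weak ones in nEnd (percentiles 27.9 and 55.1), and a 21010 bp region of it was the widest SOX2+-only region. Fgfr1, an FGF receptor, had 3 and 4 SOX2+ peaks and none in nEnd. Dusp4, a phosphatase that dampens ERK, had 8 and 10 nEnd peaks and 1 and 1 in SOX2+ cells. Of 7 LIF pathway genes, 3, 1 and 5 were nearest to an nEnd-only, SOX2+-only and shared region. Lifr, the LIF receptor, was strong in all 4 libraries (percentiles 98.2 and 95.8 in nEnd, 99.4 and 99.2 in SOX2+ cells). Of 10 Nodal pathway genes, 5, 3 and 3 were. Nodal, the ligand, had 4 and 4 SOX2+ peaks (percentiles 96.1 and 87.4), none in nEnd B9 and 1 weak peak in nEnd B12. At equal peak numbers the counts in the same order of classes were 2, 7 and 2 for FGF and ERK genes. They were then 1, 2 and 5 for LIF and 4, 3 and 3 for Nodal genes. At equal covered length FGF and ERK genes gave 0, 8 and 1.

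Housekeeping genes were the reference for shared regions, with 8 of 12 nearest to a shared, 4 to an nEnd-only and 1 to a SOX2+-only region. At equal peak numbers 8, 1 and 1 were, and at equal covered length 2, 0 and 5. Of 8 formative epiblast genes 1, 3 and 1 were nearest to the nEnd-only, SOX2+-only and shared class. Of 10 visceral and parietal endoderm genes 4, 1 and 1 were. Lists of cells that the cultures should not hold gave 3, 2 and 0 of 8 trophoblast, 2, 1 and 0 of 8 neural and 0, 0 and 0 of 8 fibroblast genes. As a check of the labels, 8 of 8 nEnd markers had a peak in both nEnd libraries and 8 of 8 markers of pluripotent cells one in both SOX2+ libraries. In SOX2+ cells 6 of the 8 nEnd markers had no peak (Gata4, Sox17, Sox7, Pdgfra, Col4a1 and Lama1), and in nEnd 2 of the 8 pluripotency markers had none (Sox2 and Esrrb). The other 6 pluripotency markers had a peak in both nEnd libraries, so a peak there separated the labels little. The nEnd markers include Sox7, whose nEnd peaks were weak (percentiles 14.9 and 18.8). No share over all genes is set beside these counts.

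The 10 genes with the most nEnd-only regions were Maml3 (19), a Notch coactivator, Chd6 (16), Tgfbr2 (15), a TGF-beta receptor, Foxq1 (11), Myof (11), Tcf7l2 (11), a Wnt effector, Adamts9 (10), and Fndc3a, Fut8 and Lrrc4 (9 each), and none of them had a SOX2+-only region. After Sox2, the genes with the most SOX2+-only regions were Zfp281 (14), a zinc-finger factor of ESCs, Pitpnc1 and Ppp1r9a (11 each), Med13l, Rbpj, the DNA-binding partner of Notch, and Reep3 (10 each), Slc35f2 and Zfp704 (9 each) and Fnbp1 (8). Med13l, Rbpj, Reep3 and Zfp704 also had nEnd-only regions, 5, 2, 2 and 2 of them. Of all genes nearest to an nEnd-only region 9.63% were also nearest to a SOX2+-only one. The share the other way was 33%, so neither overlap among these genes was far from its background.

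Regions were also ranked by the lower of the percentiles of their libraries. The 10 highest nEnd-only regions were nearest to Otud4, Rhou, the trio Cep89, Faap24 and Rhpn2, the pair Col4a1 and Col4a2, Slco3a1, Gsn, Zfp52, Hopx, Slc37a1 and Srp9. Of these 10 regions 9 held GATA6 peaks in both nEnd libraries, the exception being Zfp52 with 1 of 2. Of all nEnd-only regions 53.8% did. The 10 regions were 8425 to 261008 bp wide, against a class median of 5943 bp, and the part of width was not tested. The 10 highest SOX2+-only regions were nearest to Scn3b, Zfp981, Zfp808, Gdf3, Mettl25, Slc16a14, Fbxw4, Bpifb9b, Cr2 and Dpys. None of those 10 held a GATA6 peak of nEnd, and 7 held SOX2 peaks in all 3 SOX2+ libraries, with Zfp981, Fbxw4 and Cr2 the exceptions. Of all SOX2+-only regions 2.21% held GATA6 peaks in both nEnd libraries and 33.9% held SOX2 peaks in all 3. The absence of GATA6 was thus that of the class. Gdf3, a TGF-beta family ligand of pluripotent cells, had its region over the gene. The 5 highest shared regions were nearest to Mdm4, Ncoa3, Mcl1, Wdr81 and Mreg. All 5 held GATA6 peaks in both nEnd libraries, against 47.4% of all shared regions.

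GATA6 libraries were not used to make the regions. GATA6 peaks of nEnd lay in most nEnd-only and in few SOX2+-only regions. In nEnd B9, 57.7% of nEnd-only, 2.75% of SOX2+-only and 49.9% of shared regions held a GATA6 peak, and in nEnd B12 62.8%, 5.96% and 59.3% did. Regions with a GATA6 peak in both libraries made up 31% of all regions, but 53.8% of nEnd-only (52.8% to 54.9%), 2.21% of SOX2+-only (1.70% to 2.83%) and 47.4% of shared regions. Away from promoters, among regions more than 1 kb from a TSS, the shares were 63.7%, 2.26% and 55.5%.

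In DP cells, where GATA6 is present beside SOX2, the contrast was small. GATA6 of DP experiments A, A1 and B lay in 12.2%, 6.92% and 2.51% of nEnd-only, 8.96%, 4.64% and 2.11% of SOX2+-only and 24.7%, 13.6% and 5.36% of shared regions. The 3 DP lists were shorter, with 8316, 3821 and 1391 GATA6 peaks against 24223 and 32510 in nEnd. Over the 5 GATA6 libraries the share was higher in nEnd-only than in SOX2+-only regions by 23.5 ± 29.6 percentage points (SD), in 5 of 5 libraries, with an exact sign-flip permutation p of 0.0625, two-sided, the smallest that 5 libraries can give. With each GATA6 list cut to its 1391 strongest peaks, the length of the shortest list, the mean difference was 3.73 points. Without nEnd B9 it was 15.7 points and without nEnd B12 15.2 points, so its size rested on those 2 libraries. At equal covered length it was 43.8 points. Among regions within 1 kb of a TSS the share was higher in 4 of 5 libraries (18.8 points, exact permutation p = 0.188). With 500 bp on each side of the H3K27ac maximum in place of the whole region, it was higher in 5 of 5 libraries over all regions (20.1 points) but in 2 of 5 among those within 1 kb of a TSS (14.4 points, exact permutation p = 0.5).

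SOX2 lay more often in SOX2+-only than in nEnd-only regions, the opposite of GATA6 for these 2 classes. Shared regions did not always lie between them. In the SOX2 libraries of SOX2+ cells, experiments A, A1 and B, peaks lay in 44.9%, 46.9% and 34.9% of SOX2+-only, 39.4%, 48.2% and 29.3% of shared and 12.1%, 15.1% and 7.69% of nEnd-only regions. In DP cells they lay in 20.2%, 21.6% and 8.89% of SOX2+-only and 5.62%, 6.32% and 1.02% of nEnd-only regions. In ESCs kept in the naïve media 2iLIF and NACL, 27.6% to 52.3% of SOX2+-only and 6.04% to 20.1% of nEnd-only regions held a SOX2 peak. Over the 10 SOX2 libraries the share was higher in SOX2+-only than in nEnd-only regions by 23.7 ± 8.64 percentage points (SD), in 10 of 10 libraries, with an exact sign-flip permutation p of 0.00195, two-sided, the smallest possible. The libraries share clones and cultures and are not 10 independent lines. Within 500 bp of the strongest H3K27ac maximum, which removes the difference in region width, it was 24.4 points. At equal covered length it shrank to 4.61 points (exact permutation p = 0.0273). With each SOX2 list cut to its 1378 strongest peaks it was 8.12 points, the full lists holding 1378 to 29623 peaks. Regions with SOX2 peaks in all 3 SOX2+ libraries made up 13% of all regions, 33.9% of SOX2+-only, 27.9% of shared and 7% of nEnd-only regions. Among regions more than 1 kb from a TSS, shared regions had the highest share. There it was 34.4% of SOX2+-only, 42.4% of shared and 7.56% of nEnd-only regions.

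**Figure D5:**
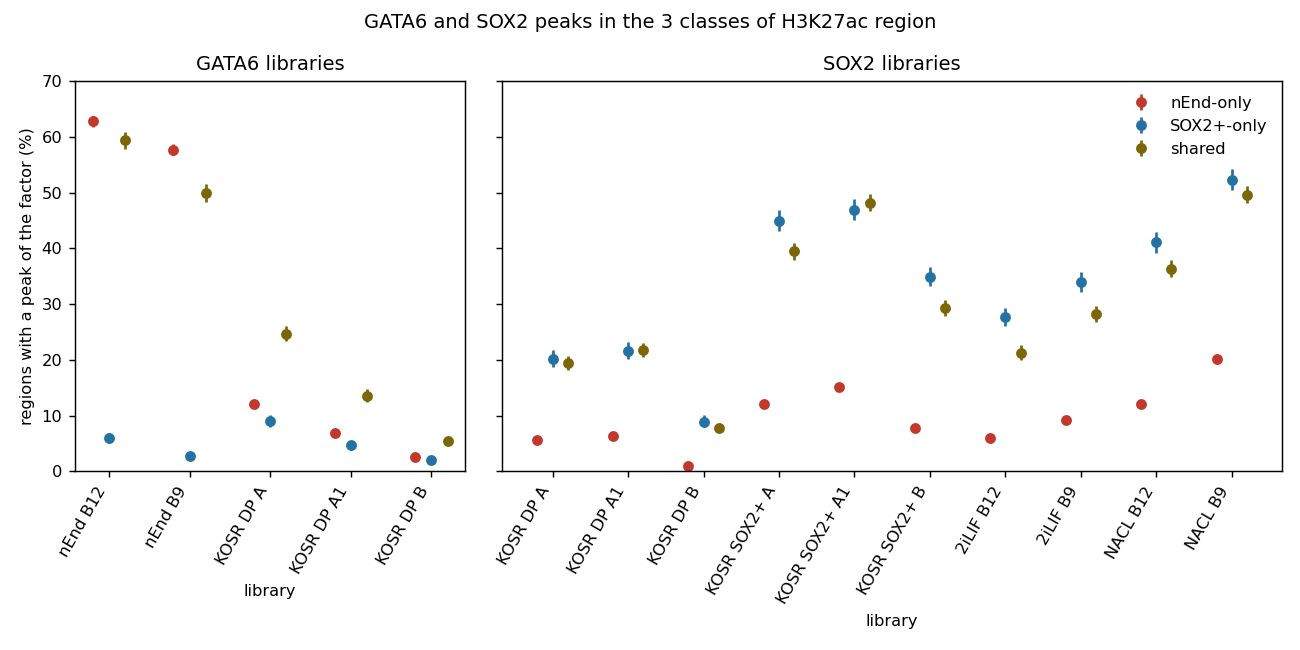
Share of the regions of each class (%, y axis) with a peak in each GATA6 (left) or SOX2 (right) library (x axis), with 95% Clopper-Pearson intervals as bars. GATA6 of nEnd lay in 57.7% and 62.8% of nEnd-only and under 6% of SOX2+-only regions, and every SOX2 library had its lowest share in nEnd-only regions.

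GATA6 peaks of both nEnd libraries and SOX2 peaks of all 3 SOX2+ libraries lay together in 19.5% of shared, 5.08% of nEnd-only and 0.893% of SOX2+-only regions, against 5.03% of all regions. No GATA6 peak of nEnd and no SOX2 peak of SOX2+ cells lay in 30% of nEnd-only, 47.3% of SOX2+-only and 26.1% of shared regions, against 44.7% of all regions. In DP cells, peaks of both factors in at least 2 of 3 libraries each lay in 2.1% of nEnd-only, 2.71% of SOX2+-only and 7.28% of shared regions, against 2.42% of all regions. The median width was 11687 bp in shared, 5943 bp in nEnd-only and 2173 bp in SOX2+-only regions, and its part in these shares was not tested. The binding of the 2 factors was measured in different cells except in DP cells.

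The question of where SOX2 sits once GATA6 is present was asked from the side of the peaks. Of SOX2 peaks in DP experiments A, A1 and B, 11.5%, 11.9% and 7.04% lay in nEnd-only regions, and in SOX2+ cells 7.47%, 7.88% and 7.42% did. The means were 10.1 ± 2.69% and 7.59 ± 0.25% (SD, n = 3 each, exact permutation p = 0.4), so DP B lay below and DP A and A1 above the SOX2+ libraries. Whether A and A1 came from separate cultures or sorts is not stated, and where they did not the n of 3 is too high. Of the same peaks 14.7 ± 3.41% in DP and 9.68 ± 1.46% in SOX2+ cells lay in SOX2+-only regions (exact permutation p = 0.1, adjusted 0.15), and 22.5% and 15.8% in shared regions (exact permutation p = 0.1). The p of 0.1 is the smallest that 3 against 3 libraries allow. With each list cut to its 1378 strongest peaks the difference in SOX2+-only regions changed sign, to -5.51 points (DP minus SOX2+, exact permutation p = 0.1). In nEnd-only regions it was 4.31 points against 2.55 with all peaks, and in shared regions 3.73 against 6.7 (exact permutation p = 0.1 for both cut lists).

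For GATA6, 17.3 ± 1.54% of DP peaks (n = 3) and 33 ± 1.59% of nEnd peaks (SD, n = 2) lay in nEnd-only regions, without overlap between the groups. In SOX2+-only regions the means were 3.96% and 0.443%, and in shared regions 17.5% and 17.6%. The exact permutation p-values were 0.2, 0.2 and 0.8, and 0.2 is the smallest that 3 against 2 libraries allow. With equal GATA6 peak numbers the DP minus nEnd difference in nEnd-only regions went from -15.8 to -33.1 points.

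nEnd-only regions divided by H3K27ac in DP cells. The single DP H3K27ac library that was used, with 76260 peaks, marked 47.4% of nEnd-only, 92.3% of SOX2+-only and 99.5% of shared regions, against 59% of all regions. The 4271 nEnd-only regions with a DP H3K27ac peak held DP GATA6 in 17.8%, 10.7% and 4.28% (A, A1, B) and DP SOX2 in 9.53%, 10.4% and 1.8%. The 4746 without one held DP GATA6 in 7.1%, 3.52% and 0.906% and DP SOX2 in 2.11%, 2.68% and 0.316%. Each of the 6 DP factor libraries had the higher share in the marked regions, and the same order was seen in SOX2+-only and shared regions (20 of the latter unmarked), so it was not particular to nEnd-only regions. In SOX2+-only regions, for example, GATA6 of DP A lay in 9.59% of marked and 1.4% of unmarked regions. The marked regions also lay nearer to genes, with 61% within 1 kb of a TSS against 41.5%, and the part of that in the difference was not tested. GATA6 of both nEnd libraries lay in 52% and 55.5% of the marked and unmarked regions.

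Most regions were also marked in naïve ESCs, whose H3K27ac lists were far longer (210904 to 401853 peaks). H3K27ac peaks of 2iLIF and NACL lay in 77.8% to 87.4% of nEnd-only and 98.6% to 99.2% of SOX2+-only regions. No peak in any of the 4 naïve libraries was found in 4.33% of nEnd-only regions, 0.179% of SOX2+-only and 0 of 3861 shared regions, which allows up to 0.0955% by the interval, against 3.9% of all regions. Peaks in all 4 naïve libraries lay in 66.2% of nEnd-only, 97.2% of SOX2+-only and 99.7% of shared regions, against 74.5% of all regions. With each naïve list cut to 76260 peaks, 75.6% of nEnd-only and 99.5% of SOX2+-only regions held a peak in any of them. The share of all regions was 82.1%. Among regions more than 1 kb from a TSS, 65.7% of nEnd-only and 77% of all regions did. Having no H3K27ac peak in SOX2+ cells therefore did not mean having none in other ESCs. The share without one depended on list length, and the cut lists were still longer than those of SOX2+ cells. Of the 33 nEnd-only regions of PrE factors, 31 held a peak in a naïve library and 10 in DP cells.

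H3K4me1, which marks enhancers before and during use, separated the classes. At 18627 peaks per library, peaks of SOX2+ A and B lay in 77.7% and 79.5% of SOX2+-only, 57.9% and 60.9% of shared and 14.7% and 14.8% of nEnd-only regions. The 2 nEnd libraries, both of clone B9, lay in 54.1% and 50.7% of nEnd-only, 67.2% and 56.8% of shared and 14.3% and 12.2% of SOX2+-only regions. Over all regions the shares were 30.7% and 31.9% for SOX2+ A and B and 38.5% and 34.4% for nEnd. The groups did not overlap in the nEnd-only or SOX2+-only class and overlapped in the shared one. As the SOX2+ libraries were of clone B12, clone and condition cannot be told apart here. With all peaks, H3K4me1 of SOX2+ A (58085 peaks) and B (78354 peaks) lay in 44.7% and 53.1% of nEnd-only regions, against 57% and 63% of all regions.

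Motifs were counted on both strands in a 500 bp window centred on each region's highest H3K27ac maximum. AGATAA or TGATAA was found in 52.9% of nEnd-only, 37.9% of SOX2+-only and 35.1% of shared windows, against 47.1% over all regions. Away from promoters, more than 1 kb from a TSS, the shares were 62%, 39.2% and 45%, against 52.5%. CATTGT was found in 35% of nEnd-only, 24.9% of SOX2+-only and 24.6% of shared windows, against 30.7%. ATGCAAAT was found in 2.18%, 4% and 2.54%, against 2.92%. TCAAGGTCA, the site of ESRRB, was found in 1.15% of nEnd-only, 5.71% of SOX2+-only and 2.1% of shared windows, against 2.14%. CCACACCC, the site of Krüppel-like factors, was near alike in all, at 6.43%, 6.46% and 6.32%, against 6.06%. The median GC content of the windows was 47.6%, 45.2% and 49.4%. A string found or not found in a window says nothing on its own about binding.

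In the 200 bp around the GATA6 maxima inside nEnd-only regions, AGATAA or TGATAA was found in 71.9% and 68.3% of windows in nEnd and 87.9%, 92.7% and 93% in DP cells. Over all GATA6 peaks the shares were 75.2% and 72.3% in nEnd and 84%, 88.6% and 86% in DP cells, so nEnd-only regions lay below that background in nEnd and above it in DP cells. At SOX2 maxima in nEnd-only regions, the same motif was found in 53.9%, 57.2% and 42.3% of windows in DP A, A1 and B, against 24.2%, 21% and 24.2% in SOX2+ A, A1 and B. In SOX2+-only regions it was found in 22 ± 2.21% of DP and 15.8 ± 0.727% of SOX2+ windows (SD, n = 3 each). For nEnd-only regions the means of 51.1 ± 7.85% and 23.2 ± 1.85% differed by 28 points, and the lowest DP library lay above the highest SOX2+ library. The exact permutation p was 0.1 (two-sided, adjusted over 4 comparisons 0.1), the smallest possible, and the comparison was chosen after the shares had been seen. The DP lists held 1378 to 5320 SOX2 peaks and the SOX2+ lists 10513 to 20609, and the motif shares were not compared at equal peak numbers, so the part of list length in the difference was not tested. Over all SOX2 peaks the means were 35.3% and 18.5%.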

How the data were processed

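CUT&RUN H3K27ac peak lists of nEnd (clones B9, B12) and KOSR SOX2+ cells (experiments A, B) were compared. The labels name cutadapt 1.18, Bowtie2 2.3.4.1, SAMtools 1.9, Picard 2.9.1, bedtools 2.27.1, deepTools 3.2.0 and SEACR, on GRCm38 (mm10), and the study's methods give peak calling against an IgG control per condition. The deposited lists hold, per peak, total signal and maximum signal and the position of the maximum. Signal is coverage in whole numbers whose scale differs between libraries, so it served only for ranking peaks inside 1 list. The lists of histone marks are named relaxed while the methods state the opposite mode, and SOX2+ list names carry a tag, mm, which those of nEnd lack and which the sources used here do not explain. Read depth is unknown.

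Peaks of chromosomes 1 to 19, X and Y were merged at 1 bp overlap with Python 3.11.15, numpy 2.4.6, pandas 2.3.3 and scipy 1.17.1. TSS, genes and introns were those of GENCODE M21, and sequences were read from the GRCm38 genome. Libraries were compared with exact permutation tests, occupancies with exact sign flips over libraries, with Benjamini-Hochberg adjustment over the 3 classes and a threshold of 0.05. Intervals (95%, Clopper-Pearson) cover counting error alone. Code was tested on simulated data. Members, gene lists and tests were chosen with earlier results of these data known. Named genes were those of the lists, the 10 (shared, 5) regions of highest rank, the 10 genes with the most regions of a class and the sequences at the highest-ranked regions. Some list members are counted but not reported here by name. Alternatives were equal peak numbers, the stronger 50% of peaks, 50% overlap, joining of gaps up to 1 kb, other TSS and distance definitions, equal factor peak numbers and each library left out. Equal covered length, regions within 1 kb of a TSS, values within clone B12 and the motif comparison at SOX2 maxima were chosen after seeing the data. The H3K27ac and H3K4me1 libraries of KOSR experiment B labelled DP have conflicting labels and were not used.

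DP and SOX2+ SOX2 libraries share experiment labels A, A1 and B. The deviations of same-labelled libraries correlated at 0.0345, 0.0161 and 0.0483, so the labels were not taken to pair them.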

Additional observations from a re-analysis of the deposited data

How the results depend on the processing

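At equal peak numbers 5445 regions were nEnd-only, and 20.1% of SOX2+-only and 87.9% of shared regions lay within 1 kb of a TSS. With the stronger 50% of each list by total signal, 4564, 1819 and 1985 regions were nEnd-only, SOX2+-only and shared. At equal covered length, chosen after seeing the data, 278, 6891 and 358 were, with 61.9%, 44.5% and 88.5% within 1 kb of a TSS, so the order of the counts turned round and that of the shares did not. With TSS of protein-coding transcripts the shares were 35.5%, 8.29% and 75.4%, and from the H3K27ac maximum 29.1%, 11.1% and 57.1%. Leaving out 1 library gave 9935 to 14901 nEnd-only and 2970 to 5887 SOX2+-only regions, as fewer lists then define a class. The shares within 1 kb of a TSS were 41.2% to 53.3%, 14.4% to 19% and 77.7% to 83.2%. Why these shares moved was not tested. With equal factor peak numbers the DP minus SOX2+ difference in the share of SOX2 peaks in SOX2+-only regions was -5.51 points and in nEnd-only regions 4.31 points, the DP minus nEnd difference of GATA6 peaks in nEnd-only regions was -33.1 points against -15.8, and the occupancy differences were 3.73 points for GATA6 and 8.12 points for SOX2. Leaving out 1 library gave DP minus nEnd differences of GATA6 peaks in shared regions between -0.746 (without nEnd B9) and 0.531 points (without nEnd B12), with 0.408 without DP A, against -0.108 with all. The cause was not tested. Of 162 values recomputed, 129 stayed within the spread or the interval, 30 moved and 3 reversed, and 83 of 126 gene-list counts stayed within 1.5 times.

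With experiment as a replicate block, the DP minus SOX2+ differences for SOX2 peaks in nEnd-only, SOX2+-only and shared regions were 2.55, 5.05 and 6.7 points, with exact sign-flip permutation p of 0.5, 0.25 and 0.25 (0.25 is the smallest possible), and no call changed. The unknown read depth and the gap in covered length limit every count of regions absent from SOX2+ lists.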

Other observations

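Of 8 trophoblast genes, 3 had H3K27ac peaks in both nEnd libraries and 2 in both SOX2+ libraries. By class, 3 were nearest to an nEnd-only and 2 to a SOX2+-only region. The shares of all protein-coding genes were 27.8% and 8.12%, and with 8 genes and no test the list is not set apart from them. Krt7, Hand1 and Ascl2 had no peak in any library, and Eomes had 1, in SOX2+ A. The other 4 are given because they had more. Elf5, an ETS factor of trophoblast stem cells, had 5 and 3 H3K27ac peaks in nEnd B9 and B12 (percentiles 92.7 and 79.3) and none in SOX2+ A or B, and Cdx2, a homeobox factor of trophectoderm, had 1 peak in each nEnd library (percentiles 66.6 and 69.6) and none in SOX2+ cells. Gata3, a trophectoderm GATA factor, had 4 peaks in each SOX2+ library (percentiles 66.1 and 84.3) and 2 and 1 in nEnd, and Tfap2c, an AP-2 factor of trophoblast and germ cells, had 2 and 5 in SOX2+ cells and none in nEnd. In the Nodal pathway, Smad7, an inhibitory SMAD, had 14 and 12 nEnd peaks against 6 and 6 in SOX2+ cells. Of 8 formative epiblast genes, Otx2, Dnmt3a and Lef1 were nearest to a SOX2+-only region and 1, Dnmt3b, a de novo DNA methyltransferase, to an nEnd-only region, with 2 and 1 nEnd peaks and none in SOX2+ cells.

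The 15585 partial regions had a median width of 3163 bp, and 30.7% of them (95% Clopper-Pearson interval 29.9% to 31.4%) lay within 1 kb of a TSS. Most held a peak of 1 library alone, with 3912 of nEnd B12, 3740 of nEnd B9, 2882 of SOX2+ B and 2052 of SOX2+ A.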
